A study of Rattus norvegicus with 14 samples.

Results

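Genes of the nuclear envelope, the nuclear pore and nuclear transport were followed in the dentate gyrus of rats after a session of spatial learning. The probe sets were chosen by gene symbol: Tmpo, Lmna, Lmnb1, Lmnb2, Emd, Ran, Ranbp1, Ranbp2, Rangap1, and every symbol that starts with Nup, Xpo, Ipo, Kpn or Tnpo. This gave 58 probe sets of 47 genes, out of 15866 probe sets without controls. The group was put together with the learning minus control differences of Tmpo and Ranbp2 known, so the differences of members below are descriptions of these arrays. Where members are counted at a p threshold, the count stands beside that of all probe sets and nothing is read from it. Of the 58 probe sets, 41 probe sets of 38 genes had a mean of at least 4 on the log2 scale and entered the fit. The other 17 were near the lower end of the scale, with means from 1.96 to 3.65.

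The animals were young male Long-Evans rats of 3 to 4 months, 7 per group, with 1 short-oligonucleotide array per rat of RNA from the dissected dentate gyrus. All had first learned a water maze task, in which swimming rats find an escape platform, and 2 to 3 weeks later had 1 session of 8 trials, 8 min apart, at a new site. Learning rats had spatial cues and a visible platform that stayed in place; control rats had a visible platform that moved between trials, with no informative cues. A probe trial of 90 s without the platform followed 1 h after the last trial, and the dentate gyrus was dissected straight afterwards.

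The nuclear envelope is a double membrane lined on the inside by the lamina, a mesh of lamins to which inner membrane proteins such as LAP2 and emerin bind. Nuclear pores, built from many copies of the nucleoporins, cross it. Importins carry cargo in and exportins carry cargo out, and the small GTPase Ran gives the traffic its direction, because it is loaded with GTP in the nucleus and hydrolyses it in the cytoplasm. In neurons this traffic includes synapse-to-nucleus messengers that travel with importins.

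Deposited values are taken as log2 expression values; that scale was read from their range, and each fold given here rests on it. Array medians lay between 5.09 and 5.12, and correlations between arrays between 0.995 and 0.998. Of the 8 listed granule cell markers 3 had a tested probe set: Prox1 and Calb1, with means of 10.3 and 10.8, and Dsp, with 6.59. Such means do not measure how pure a dissection was. The samples are bulk dissections, in which fewer cells of a type and less RNA per cell cannot be told apart. Across all 9387 tested probe sets limma called 0 (0%) at a Benjamini-Hochberg adjusted p below 0.05, with 604 higher and 626 lower at an unadjusted p below 0.05. No member was among the calls. Genes with several tested probe sets are lettered by mean level: Xpo1 A (8.65) and B (7.84), Kpnb1 A (6.94) and B (6.26), Nup58 A (5.94) and B (5.12).

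The upstream sequence of the 3 genes whose probe sets stood highest in learning rats is shown with short motifs in capitals, as a view of how different these regions are. Each line is the 250 bases before the RefSeq start site in build GRCr8, 5′ to 3′. Tmpo is at chr7:27554936-27555185 on the minus strand, Ranbp2 at chr20:26985064-26985313 on the plus strand and Xpo1 at chr14:101434200-101434449 on the plus strand. The capitals mark the motifs CCAAT (the CCAAT box), GGGCGG (the GC box), TGACGTCA (the cAMP response element), CCGGAAG (ETS), TTTCCCGC or TTTGGCGC (E2F) and the NRF1 motif, on either strand. For Tmpo and Ranbp2 the RefSeq gene record begins further upstream than the start site used here, so other starts exist.
Tmpo: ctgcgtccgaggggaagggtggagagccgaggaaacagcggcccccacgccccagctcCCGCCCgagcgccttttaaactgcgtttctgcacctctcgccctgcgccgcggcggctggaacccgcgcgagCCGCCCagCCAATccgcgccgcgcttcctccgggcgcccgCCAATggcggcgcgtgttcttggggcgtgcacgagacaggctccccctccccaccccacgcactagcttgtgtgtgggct
Ranbp2: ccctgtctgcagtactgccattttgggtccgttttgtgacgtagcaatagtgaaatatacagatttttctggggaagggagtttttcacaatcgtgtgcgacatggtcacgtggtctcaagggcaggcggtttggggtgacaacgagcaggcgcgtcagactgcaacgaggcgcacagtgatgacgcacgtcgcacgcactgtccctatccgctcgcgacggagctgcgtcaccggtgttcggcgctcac
Xpo1: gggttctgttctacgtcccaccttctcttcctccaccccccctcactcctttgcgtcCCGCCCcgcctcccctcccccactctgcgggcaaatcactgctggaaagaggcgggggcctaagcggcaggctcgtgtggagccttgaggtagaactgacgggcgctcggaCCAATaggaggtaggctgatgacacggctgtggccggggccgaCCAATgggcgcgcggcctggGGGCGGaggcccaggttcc
In Tmpo 2 CCAAT boxes begin 112 and 80 bases before the start, and 2 GC boxes 192 and 120 before it. In Xpo1 the CCAAT boxes begin 82 and 39 bases before the start and the GC boxes 193 and 19, and the Ranbp2 window holds none of the motifs. A promoter window of 300 bases, which runs past the start, was listed for 41 of the 46 member genes other than Nupr1. Of these, 34 belong to tested genes, of which 67.6% held a GC box, 44.1% a CCAAT box, 14.7% ETS, 11.8% NRF1, 5.88% E2F and 5.88% a cAMP response element. The shares over the promoters of all genes tested on the array were 66.4%, 37.9%, 19.2%, 11.8%, 2.51% and 3.22%. The E2F and the cAMP response element shares rest on 2 tested genes each, and a match of letters is not a binding site.

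Tmpo, which encodes the LAP2 proteins that tie lamins and chromatin to the inner nuclear membrane, had the largest difference of the members. In control rats its level was 6.58 at the lowest, 6.94 at the median and 7.00 at the highest, and in learning rats 7.07, 7.40 and 7.49. Every learning array lay above every control array, with learning replicate 4 the lowest of its group. The means of the 7 controls and 7 learners were 6.83 ± 0.18 (SD) and 7.35 ± 0.14 (SD), a difference of 0.52 ± 0.08 log2 units (SE), or 1.43-fold. The second Tmpo probe set, made to the same accession, had a mean of 1.96 and a difference of 0.0002, and so gives no second reading of the gene.

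The rest of the lamina and inner membrane group was dim. Emd, the gene of emerin, was at 5.69, 5.81 and 5.94 in control rats (lowest, median, highest) and at 5.55, 5.76 and 5.84 in learning rats, a difference of -0.08 ± 0.05 (SE). Lmna, which encodes lamins A and C, was at 4.02, 4.51 and 4.61 in controls and 4.40, 4.49 and 4.80 in learners. Its difference of 0.07 ± 0.09 (SE) turned to -0.008 without control replicate 6, its lowest array, and to -0.007 with the CA1 marker mean as covariate. The other Lmna probe set, 3 of Lmnb1 and 1 of Lmnb2, the B-type lamins, were under the filter, so this array gives little on the lamina itself. Emd and Lmna groups overlapped, as did all members other than Tmpo.

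**Figure D1:**
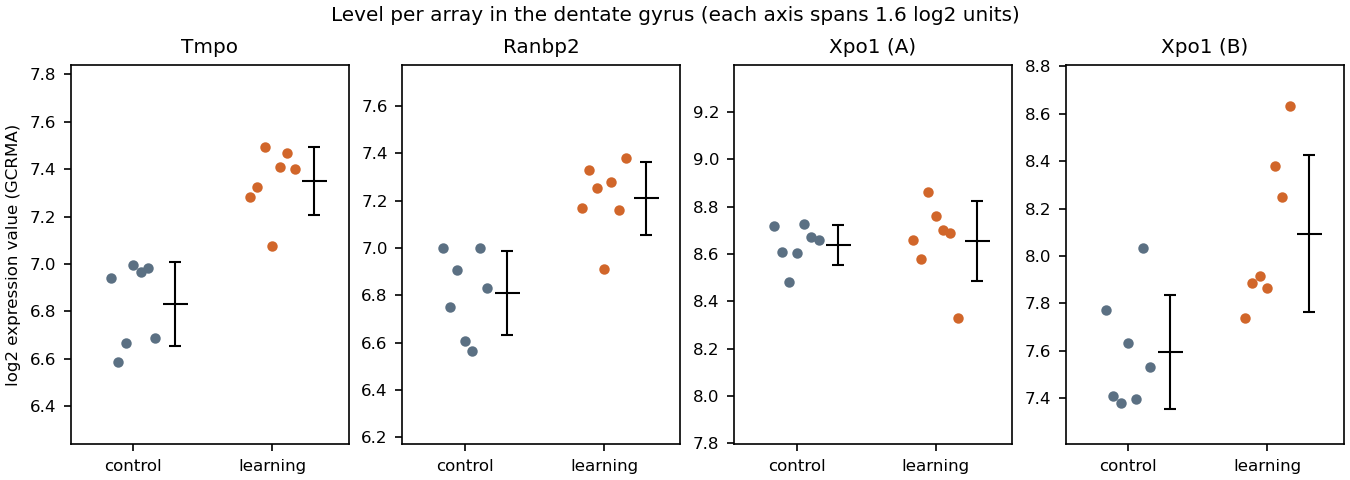
Log2 expression value of each array (points, 7 per group) for Tmpo, Ranbp2 and both Xpo1 probe sets, with the group mean and SD as bars; each vertical axis spans 1.6 log2 units. Tmpo separates the groups, Ranbp2 and one Xpo1 probe set are shifted up by 0.40 and 0.50 with overlap, and the other Xpo1 probe set differs by 0.02.

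Among the genes of the Ran cycle, Ranbp2 stood apart. It encodes the giant nucleoporin of the cytoplasmic filaments, which binds Ran, holds SUMO-modified RanGAP1 at the pore and acts as a SUMO ligase. Its level was 6.56, 6.83 and 7.00 in control rats (lowest, median, highest) and 6.91, 7.25 and 7.38 in learning rats. Only learning replicate 4 fell within the control range, and the difference was 0.40 ± 0.09 log2 units (SE), or 1.32-fold. Rangap1, which encodes the activator of Ran's GTPase, was at 9.17, 9.43 and 9.46 in control rats and 9.26, 9.56 and 9.71 in learning rats. The Rangap1 difference was 0.12 ± 0.07 (SE), with learning replicates 1 and 2 inside the control range. Ran itself was at 10.84, 10.88 and 10.98 in controls and 10.65, 10.91 and 11.02 in learners, a difference of -0.01 ± 0.06 (SE). Ranbp1, a cofactor of the activator, was under the filter at a mean of 2.10.

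The nucleoporins split in both directions. Of 15 tested probe sets of 14 genes, 9 had a positive difference (learning minus control) and 6 a negative one, with a median of 0.01. Ranbp2, counted under the Ran cycle, is not among them. Nup93, a scaffold protein of the inner ring, was at 4.49, 4.61 and 4.78 in control rats (lowest, median, highest) and at 4.59, 4.80 and 5.23 in learning rats, a difference of 0.24 ± 0.08 (SE). Nup93 was dim, with a mean of 4.72 over all arrays against the filter at 4. Without learning replicate 1, its highest array, its difference was 0.18. Nup205, the inner ring partner of Nup93, differed by 0.13 ± 0.06 (SE), and Nup155, of the same ring, by 0.04. Nup153, a nucleoporin of the nuclear basket, went the other way, with 7.64, 8.04 and 8.20 in control rats and 7.15, 7.76 and 8.17 in learning rats. Its difference was -0.31 ± 0.13 (SE), of which learning replicate 4, the lowest array, carried part: without it the value was -0.22. The spread of Nup153 was wider in learning rats (SD 0.32) than in control rats (SD 0.18).

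Nup62, the central channel protein that gives its name to the Nup62 complex, was at 7.17, 7.35 and 7.39 in controls (lowest, median, highest) and 6.88, 7.30 and 7.58 in learners, a difference of -0.05 ± 0.09 (SE). Its partner Nup58 was at 5.71, 5.89 and 6.07 in controls and 5.67, 6.01 and 6.17 in learners on probe set A. On probe set B it was at 4.96, 5.07 and 5.36 in controls and 4.81, 5.04 and 5.62 in learners. The Nup58 differences were 0.06 and -0.003, with full overlap of the groups, and the other partner, Nup54, differed by 0.08. Of the Y-shaped outer ring complex, Nup85 differed by 0.07, Nup43 by 0.02, Nup133 by 0.01 and Nup37 by -0.05. Nup88 and Nup42 of the cytoplasmic face differed by 0.01 and -0.06, and Nup98, whose product is found on both faces, by -0.01. Nup107, Nup188, Nup210, Nup214 and Nup50 were under the filter, as were further probe sets of Nup37, Nup58 and Nup98. Nupr1 entered by its symbol only: it encodes a stress-induced chromatin protein, not a nucleoporin, and was under the filter with a difference of -0.10.

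**Figure D2:**
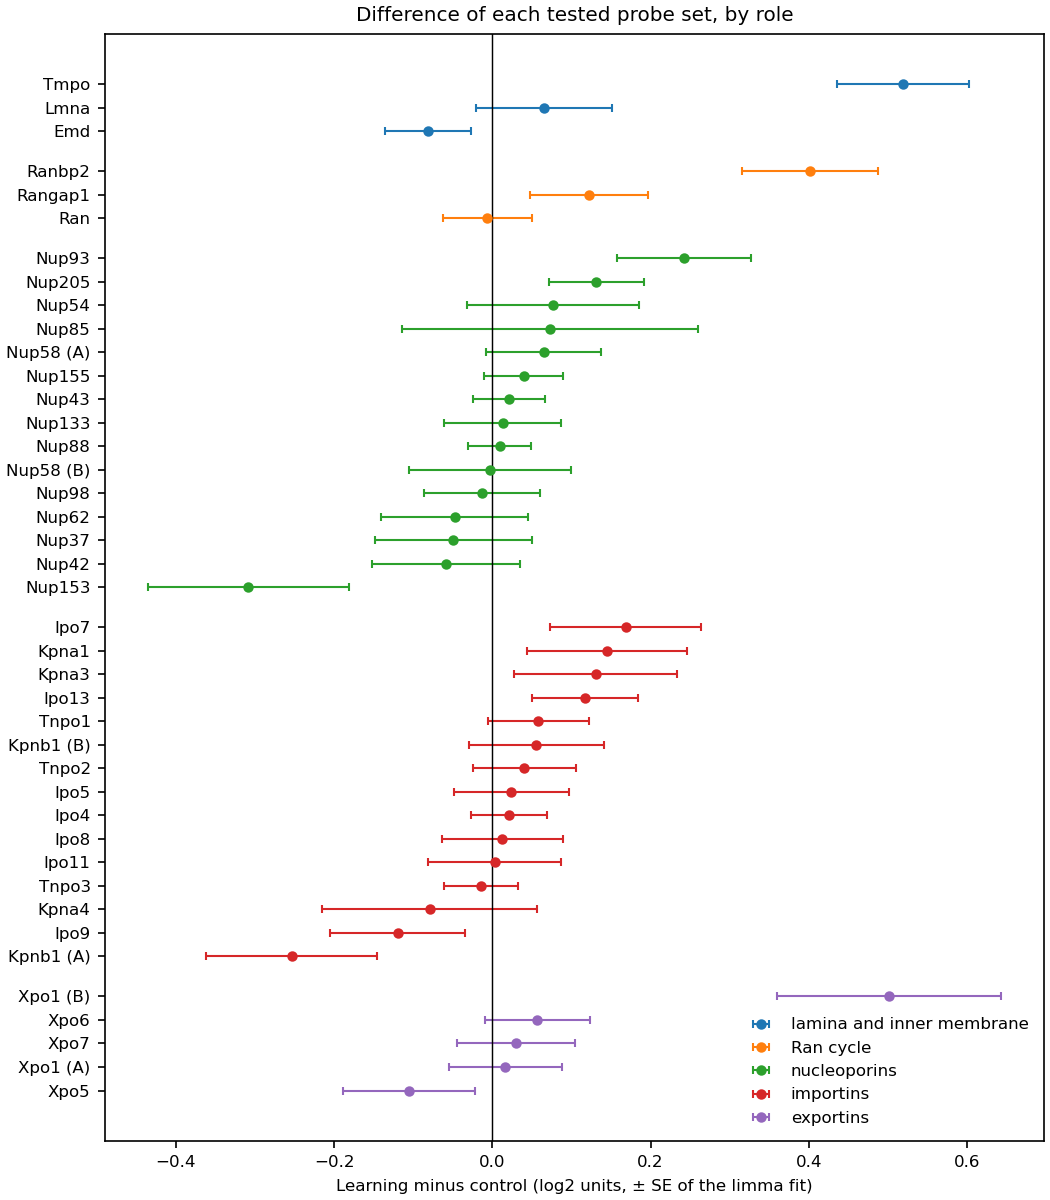
Learning minus control difference of the 41 tested probe sets in log2 units, with the SE of the limma fit as bars, ordered within each role; letters mark genes with several tested probe sets. Tmpo, Ranbp2 and Xpo1 B lie at 0.40 or above, and Nup153 and Kpnb1 A lie lowest.

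Import receptors had both signs. Of 15 tested probe sets of 14 genes, 11 had a positive and 4 a negative difference, from -0.25 to 0.17 with a median of 0.02. Kpnb1 encodes importin beta, the receptor of the classical pathway. On probe set A it was at 6.87, 7.03 and 7.64 in control rats (lowest, median, highest) and at 6.63, 6.77 and 7.05 in learning rats, a difference of -0.25 ± 0.11 (SE). Control replicate 6 was far above the other controls, and the value without it was -0.16; with choroid plexus markers as covariate it was -0.49. Kpnb1 B was at 5.96, 6.22 and 6.58 in controls and 6.17, 6.24 and 6.61 in learners, a difference of 0.06 ± 0.09 (SE). Without learning replicate 4 it was 0.003, so probe set B has no settled sign and does not repeat the lower level of A.

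The importin alphas are the adaptors that read the classical import signal. Kpna1 was at 11.14, 11.22 and 11.66 in control rats (lowest, median, highest) and at 11.10, 11.56 and 11.65 in learning rats, a difference of 0.14 ± 0.10 (SE) with full overlap of the groups. Kpna3 differed by 0.13 ± 0.10 (SE), by 0.065 without control replicate 6, and by 0.04 with CA1 and 0.37 with choroid plexus markers as covariate. Kpna4 was at 9.47, 9.81 and 10.20 in controls and 9.11, 9.78 and 10.14 in learners, a difference of -0.08 ± 0.14 (SE) that became 0.02 without learning replicate 4, and -0.40 with choroid plexus markers as covariate. Ipo7, a receptor of ribosomal proteins and other cargo, was at 8.49, 8.60 and 8.92 in control rats and at 8.43, 8.88 and 9.06 in learning rats, a difference of 0.17 ± 0.10 (SE). Ipo13 differed by 0.12 and Ipo9 by -0.12, while Ipo4, Ipo5, Ipo8 and Ipo11 lay between 0.003 and 0.02. The transportins, which carry RNA-binding and splicing proteins, differed by 0.06 (Tnpo1), 0.04 (Tnpo2) and -0.01 (Tnpo3).

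For the exportins, the reading depended on the probe set. Xpo1 encodes CRM1, the main export receptor for proteins with a leucine-rich signal. On probe set B it was at 7.38, 7.53 and 8.03 in control rats (lowest, median, highest) and at 7.74, 7.92 and 8.63 in learning rats, a difference of 0.50 ± 0.14 (SE), or 1.42-fold. Of the learners, 4 lay within the control range, whose top was control replicate 6. On probe set A it was at 8.48, 8.66 and 8.73 in control rats and at 8.33, 8.69 and 8.86 in learning rats, a difference of 0.02 ± 0.07 (SE) whose sign turned in several alternatives. Within groups the deviations of the 2 probe sets correlated at -0.34 over the 14 arrays, so they did not vary together from rat to rat. The negative sign leans on learning replicate 7, at -0.32 on probe set A and 0.54 on B, so opposite variation is not shown. Xpo6, the exportin of actin and profilin, was at 8.51, 8.64 and 8.83 in control rats and at 8.57, 8.73 and 8.94 in learning rats, a difference of 0.06. Xpo7 differed by 0.03. Xpo5, which exports microRNA precursors, was at 5.90, 6.19 and 6.39 in control rats and at 5.89, 6.11 and 6.16 in learning rats, a difference of -0.11 ± 0.08 (SE).

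Set beside all tested probe sets, the members had a median difference of 0.02 against 0.01, and a median absolute difference of 0.06 against 0.08. Of the 41, 28 (68.3%) had a positive difference, against 51.7% of all tested. At an unadjusted p below 0.01 there were 3 higher (Tmpo, Ranbp2 and Xpo1 B; 1.89% of all tested were higher at that level) and 0 lower (2.05% of all). At an unadjusted p below 0.05 there were 5 higher (6.43% of all) and 2 lower (6.67% of all), and 1 member had groups that did not overlap (0.17% of all, higher in learning). The choice of the group used this contrast, so nothing is read from these counts.

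**Figure D3:**
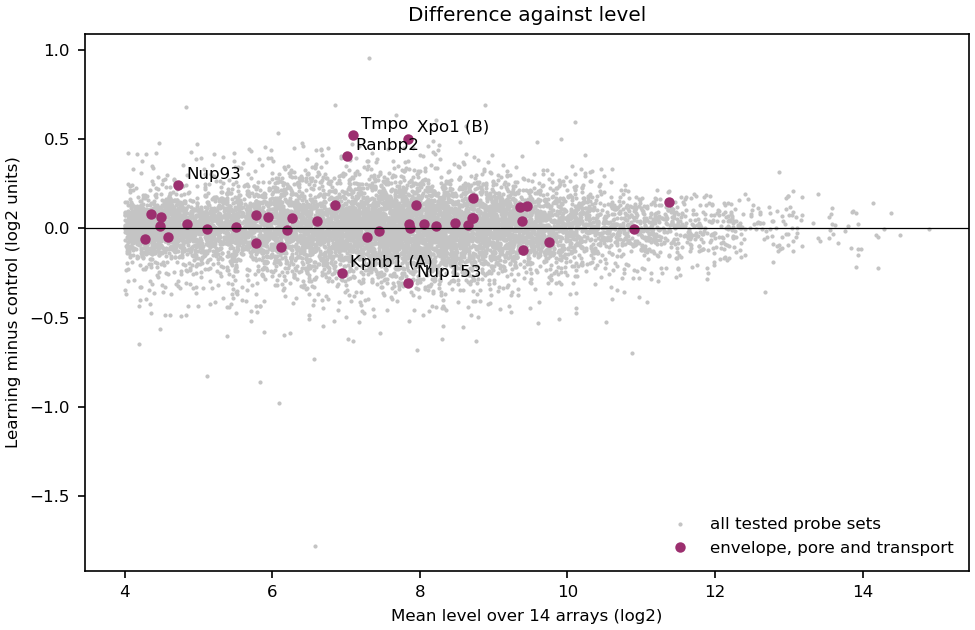
Learning minus control difference (log2 units) against the mean level over 14 arrays (log2) for all 9387 tested probe sets (grey) and the 41 member probe sets (purple); members beyond 0.2 in either direction are named. Most members lie within the grey band around 0.

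The variation between rats of one group, which the choice of members did not use, was examined next. Each array's deviation from its group mean was correlated between pairs of probe sets, as a description over 14 arrays. The 817 pairs of different member genes had a median r of 0.01, with the middle of the distribution from -0.20 to 0.25 (quartiles). All pairs of tested probe sets had a median r of 0.0005 and quartiles of -0.22 and 0.22. The middle of both distributions was close, so most envelope, pore and transport genes varied from rat to rat without a common direction. The most positive pair was Ranbp2 and Nup58 at 0.77 and the most negative Lmna and Kpnb1 at -0.84; both are extremes of many pairs, and control replicate 6 was the lowest control for Lmna and the highest for Kpnb1.

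**Figure D4:**
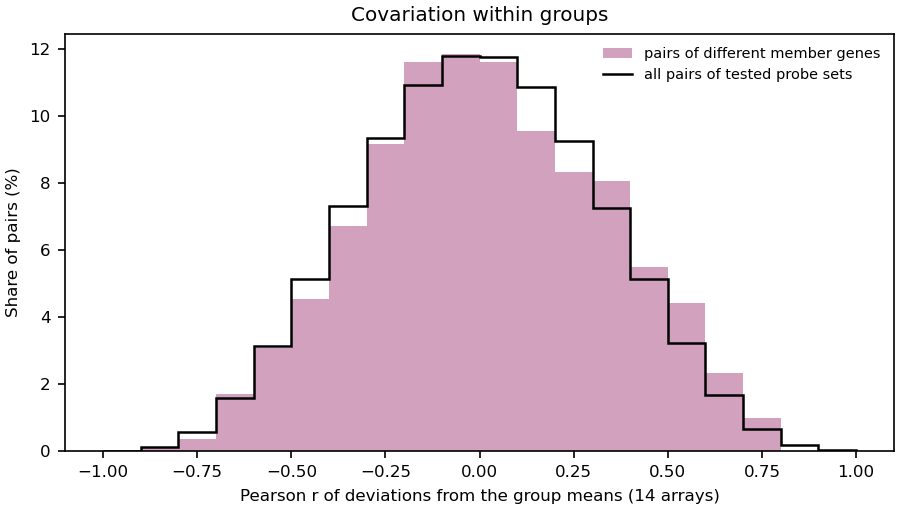
Share of pairs (%) by Pearson r of the deviations from group means over 14 arrays, for 817 pairs of different member genes (filled) and all pairs of tested probe sets (line). Both distributions centre close to 0, at medians of 0.01 and 0.0005.

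Tmpo, Ranbp2 and Xpo1 B were also set against each other and against 11 marker list means and 2 control-transcript measures, again as deviations from group means. Over these 42 relations 1 had an adjusted p below the threshold, by Pearson's r only. Ranbp2 was lower in rats with higher endothelial markers (Pearson r = -0.79, permutation p = 0.00078, adjusted p = 0.0328). By rank the values were Spearman rho = -0.76, permutation p = 0.00235 and adjusted p = 0.067. The permutations shuffled deviations over all arrays and made no allowance for the removed group means, so their p-values tend to be too small. No relation is therefore counted as established. Without the 2 arrays farthest from the median of the endothelial mean, r was -0.57. The endothelial mean, over 4 of 7 listed markers, lay between 6.57 and 7.11 in controls and 6.70 and 7.10 in learners. Ranbp2 also went down with rising meningeal markers (r = -0.69, permutation adjusted p = 0.0948, rho = -0.69, permutation adjusted p = 0.109, r = -0.76 without the 2 farthest arrays). This is not a separate reading, because the endothelial and meningeal means moved together. Both were high in control replicate 5 (7.11 and 8.33) and learning replicate 4 (7.10 and 8.42). Both were low in control replicate 1 (6.57 and 5.68) and learning replicate 2 (6.70 and 5.37). Learning replicate 4, the lowest learner for Tmpo and Ranbp2, had the highest meningeal mean of all arrays at 8.42. Tmpo itself correlated with meningeal markers at r = -0.28 (permutation adjusted p = 0.605, rho = -0.26, permutation adjusted p = 0.716), and at r = 0.17 without the 2 farthest arrays. Tmpo rose and fell with oligodendrocyte markers at r = 0.69 (permutation adjusted p = 0.0948; rho = 0.74, permutation adjusted p = 0.067; r = 0.66 without the 2 farthest arrays), which missed the threshold. Tmpo and Ranbp2 correlated at r = 0.23 (permutation adjusted p = 0.662; rho = 0.18, permutation adjusted p = 0.879; r = 0.09 without the 2 farthest arrays). Xpo1 B correlated with Tmpo at r = 0.52 (permutation adjusted p = 0.279; rho = 0.54, permutation adjusted p = 0.223; r = 0.50 without the 2 farthest arrays). With Ranbp2 it correlated at r = 0.52 (permutation adjusted p = 0.279; rho = 0.52, permutation adjusted p = 0.229; r = 0.29 without the 2 farthest arrays).

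The non-member genes whose deviations were most like those of Tmpo were Mtmr4 (r = 0.79), Ciao2a (r = 0.73) and Ppp1r2 (r = 0.72), and their own differences between groups were -0.05, 0.11 and 0.22. For Ranbp2 they were Cfap97 (r = 0.87), Mbnl2 (r = 0.84) and Nfyc (r = 0.82), with differences of 0.29, 0.03 and -0.01. These are the highest values among all tested single-gene probe sets over 14 arrays.

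Other genes of pore, transport and envelope were listed by function, outside the member rule. Of 53 genes, 31 had a tested probe set. The difference was positive for 21 and negative for 10, with a median of 0.04, and limma called 0 at an adjusted p below 0.05; at an unadjusted p below 0.05 there was 1 higher (6.43% of all tested) and 1 lower (6.67% of all tested). The largest positive differences were those of Zmpste24, the protease that matures lamin A, at 0.27 ± 0.11 (SE; adjusted p = 0.338 in limma), Sec13, of the outer ring complex, at 0.17 and the SUMO protease gene Senp2 at 0.17. The largest negative differences were those of Ncbp2, a cap-binding subunit, at -0.29 ± 0.13 (SE; adjusted p = 0.353 in limma), Nutf2, the import factor of Ran, at -0.12 and Phax, an adaptor of small nuclear RNA export, at -0.11.

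Some marker lists differed between the groups, and their values stand beside the members here. The choroid plexus mean, over 2 of 6 listed markers, lay between 6.67 and 7.98 in controls and between 6.34 and 6.61 in learners. Its difference was -0.91 (two-sided exact permutation p = 0.000583, the smallest possible, adjusted p = 0.00641 over 11 lists), with Ttr at -1.78 and Enpp2 at -0.04. The remaining listed markers Kl, Folr1, Clic6 and F5 had no tested probe set. With no filter on low values the difference of this mean was -0.36. The mean thus mostly follows Ttr. The lists were chosen with earlier results of these data known, so their p-values are descriptions and give no independent support for a tissue difference. The granule cell mean, over 3 of 8 markers, lay between 8.99 and 9.23 in controls and between 9.13 and 9.38 in learners (difference 0.16, exact permutation p = 0.00583, adjusted p = 0.0321), with Dsp at 0.44, Prox1 at 0.08 and Calb1 at -0.03. The CA1 mean (difference 0.24, 6 of 8 markers) and the microglial mean (difference -0.17, 6 of 7 markers) each had an adjusted p of 0.135 in the exact permutation test. RNA integrity, read as the 3' minus the 5' signal of beta-actin, gave 1.32 ± 0.09 (SD) among the 7 controls and 1.41 ± 0.11 (SD) among the 7 learners (exact permutation p = 0.131). The same measure of GAPDH was 0.43 ± 0.05 (SD) in controls and 0.40 ± 0.09 (SD) in learners (exact permutation p = 0.516).

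With each of these means as a covariate in turn, the Tmpo difference was 0.35 ± 0.13 (SE) with choroid plexus markers, 0.43 with granule cell markers, 0.46 with microglial markers, and 0.48 with CA1 markers or the beta-actin measure. The Ranbp2 difference was 0.23 ± 0.13 (SE) with choroid plexus markers and between 0.31 and 0.44 with the others. Xpo1 B fell furthest, from 0.50 to 0.12 ± 0.20 (SE) with choroid plexus markers, and was 0.32 with microglial and 0.36 with granule cell markers. Nup93 was at 0.07 with choroid plexus markers and 0.37 with granule cell markers. Nup153 was at -0.14 with granule cell markers, -0.43 with choroid plexus markers and -0.47 with the beta-actin measure. Its deviations correlated with that measure at 0.73 over 14 arrays, and those of Tnpo1 at 0.79, descriptions chosen after the values were seen. The Tnpo1 difference of 0.06 became -0.02 with the beta-actin covariate. With the choroid plexus covariate 27 of the 41 member differences were larger in size than without it and 14 smaller, and 12 had the other sign. The choroid plexus mean, which mostly follows Ttr, does not overlap between the groups, so its share in the differences and that of the session cannot be told apart.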

How the data were processed

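Dentate gyrus RNA was run on Affymetrix RAE230A arrays, per the labels' protocols. Each deposited value is a log2 level of 1 probe set that the authors computed, per the submitters' processing notes, with GCRMA; the log2 scale was read from the values. Its version and the genome build behind the probes were not given in the sources used here. This method compresses differences near background, so small differences of dim probe sets say little. Probe sets were named through the platform annotation, and a probe set listed for several genes (as for Kpna2) was left out. All 47 member gene IDs matched the current RefSeq table (GRCr8). The 57 control probe sets and those with a mean below 4 were left out, which gave 9387 tested. The group difference was fitted in limma 3.58.1 under R 4.3.3 (lmFit and eBayes, no covariate, Benjamini-Hochberg threshold 0.05), after the script was tested on simulated data. The number of arrays limits the precision; the median SE was 0.08. Titles gave each array's group and number and describe biological replicates; no batch is given.

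Marker means took the probe set of highest mean per gene and were compared by exact permutation over 3432 assignments, and correlations by 100000 permutations. Those for correlations shuffled the deviations over all arrays, with no allowance for the removed group means. The members and lists were chosen with earlier results of these data known. Named genes were Tmpo and Ranbp2, all members by symbol, per role the 2 of largest difference and the 2 of highest mean with array values, the 3 largest differences per direction among the other genes, the 3 genes most like Tmpo, and the 2 marker genes of highest mean per list used. The genes most like Ranbp2, Dsp and the 42 relations were added after their values could be seen. Promoters came from RefSeq (GRCr8). Figures were drawn with matplotlib 3.10.9.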

Additional observations from a re-analysis of the deposited data

Results flagged for a closer look

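Within a group of 7 rats, single arrays lay far from the others (a gap to the nearest array above Dixon's 95% critical value) for 15 of 82 groups looked at, over the 41 tested probe sets. The nominal rate of about 1 in 20 groups holds for independent, normally distributed values, whereas these probe sets share the same arrays. The share over all tested probe sets was not taken, so an excess particular to these genes is not shown. Control replicate 6 was highest for Kpnb1 A (7.64, next 7.07) and for Xpo7 (8.56), and lowest for Lmna (4.02, next 4.49). Learning replicate 2 was highest for Nup54 (4.99, next 4.35) and Nup88 (5.64) and lowest for Nup98 (5.99). Learning replicate 4 was highest for Nup42 (4.59) and Kpnb1 B (6.61). Control replicate 1 was highest for Ipo7 (8.92) and Nup98 (6.55). The remaining values were Lmna in learning replicate 5 (4.80, highest), Emd in learning replicate 7 (5.55, lowest), Nup155 in control replicate 7 (6.73, highest), Nup37 in control replicate 5 (4.12, lowest) and Rangap1 in control replicate 4 (9.17, lowest). Tmpo, Ranbp2 and both Xpo1 probe sets had no such array.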

How the results depend on the processing

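The differences of Tmpo and Ranbp2 and the members' median kept their sign under every alternative tried: no filter or a stricter one, array weights, quantile normalization or median centring, a robust trended prior, the replicate block, 6 covariates and each array left out. Leaving out 1 array gave 0.48 to 0.57 for Tmpo, 0.36 to 0.45 for Ranbp2 and 0.01 (without control replicate 6) to 0.04 (without learning replicate 6) for the median. The choroid plexus covariate, added after the data were seen like those for granule cells and microglia, moved Tmpo to 0.35 and Ranbp2 to 0.23. The number of probe sets at unadjusted p below 0.01, 369, was 87 with the granule cell, 193 with the choroid plexus and 83 with the microglial covariate, and 224 to 432 with an array left out. Calls numbered 0 to 1 with an array left out (1 without control replicate 6, an unnamed probe set; 1 without learning replicate 1, Ripor2; 1 without learning replicate 4, Tmpo, for which it is no support because its difference was known when members were chosen) and 0 otherwise; the lowest p counts came without control replicates 2 (224) and 4 (237) and learning replicate 7 (239). Among the 41 member probe sets, 26 had the opposite sign in at least 1 alternative. Signs turned for Kpnb1 B (-0.12) and Xpo7 (-0.13) with the granule cell covariate, and for Ipo5 (-0.11), Ipo9 (0.11) and Nup85 (-0.29) with the choroid plexus covariate; the cause was not tested. The CA3 mean was 0.062 with a filter at 5 and the interneuron mean -0.00082 after quantile normalization; with an array left out they ran from -0.046 to 0.027 and from -0.030 to 0.026, oligodendrocytes from -0.031 to 0.096 and endothelium from -0.023 to 0.067. The replicate block left Tmpo at 0.52 ± 0.09 (SE), with 0 called and 413 probe sets at unadjusted p below 0.01; the deviations of same-numbered arrays correlated from -0.28 to 0.26 (median 0.11, 4 of 7 above 0.1) and those of different-numbered arrays from -0.22 to 0.31 (median -0.02, 7 of 42 above 0.1), so pairing by number was not established.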
